A study of Mus musculus with 6 samples.

Results

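This comparison sets embryonic stem cells that carry the missense change C54Y in THAP1 against wild-type cells of the same study. It uses 4 of the 6 libraries of the series: 2 from wild-type cells (WT) and 2 from cells homozygous for C54Y, each numbered replicate 1 or replicate 2. They were chosen by the genotype in their labels and compared within replicate number. The third genotype, THAP1 -/- cells that lack exon 2 of Thap1 (KO, 2 libraries), entered the fit and serves only to show where C54Y differs from loss of the gene. All lines came from C57Bl/6 blastocysts and were grown on irradiated mouse embryonic fibroblast feeders with serum and leukemia inhibitory factor (LIF) at 1000 units per ml. Total RNA was sequenced. The labels do not say whether each genotype is 1 clone or whether the libraries of a group are separate cultures, so p-values measure only the spread between these samples.

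THAP1 belongs to a family of DNA-binding proteins that share the THAP domain, a zinc finger held by cysteine and histidine residues that coordinate zinc. The cysteine that C54Y replaces with tyrosine is among these zinc ligands. Mutations of THAP1 cause DYT6, an inherited dystonia. Mouse embryonic stem cells grown in serum and LIF are pluripotent, and a minority of cells in such cultures can express genes of the primitive endoderm, the lineage that forms the yolk sac.

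The libraries held 31774656 to 46772996 reads, with 17061 to 18481 genes detected. Values are normalized counts, reads divided by 1 size factor per library, and fold changes are on the log2(normalized count + 2) scale, which understates the change of genes with few reads. Of 19713 genes in the table, 15287 reached a normalized count of 10 in 2 or more of the 6 libraries and were tested. The replicate numbers marked a large difference that all genotypes shared: 1 abundant ribosomal precursor transcript, Rn45s, made up 0.472% to 0.600% of the reads of replicate 1 libraries and 1.49% to 2.05% of those of replicate 2. The stem cell factors Pou5f1, Sox2 and Nanog were abundant in every library: the lowest of their WT and C54Y values was 7539, for Nanog in WT replicate 2. Markers of fibroblasts, the feeder cells, were also present, and limma called 0 of 23 (3 at an unadjusted p under 0.05; 0 by edgeR and DESeq2). Their summed normalized count was 59665 and 80879 in WT and 67920 and 94417 in C54Y. In these bulk libraries, fewer cells of a type and less RNA per cell cannot be told apart.

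Thap1 itself had normalized counts of 433 and 701 in WT (replicates 1 and 2) and 2253 and 2533 in C54Y. Both C54Y libraries lay above both WT libraries, by a log2 fold change of 2.11 ± 0.22 (SE, adjusted p = 0.00301, limma), or 4.33-fold. In the KO libraries the values were 1975 and 1686. A count over the whole gene shows neither the missense base nor the deleted exon, so these values do not check the labels.

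Across all genes, 208 of 15287 (1.36%) were called different between C54Y and WT at an adjusted p under 0.05. Of these, 147 (0.962% of genes tested) were higher in C54Y and 61 (0.399%) were lower. Every called gene moved the same way in both replicates, which a test within replicate number favours. The smallest called log2 changes were 0.74 among rises and 0.69 among falls, so the size of called changes partly reflects the threshold. Of the 147 genes that rose 134, and of the 61 that fell 49, differed over 2-fold, and 26 and 4 differed over 8-fold. Over all tested genes, 4.64% differed over 2-fold in replicate 1 and 10.2% in replicate 2. Among the genes that rose, 27 had a mean normalized count under 10 in WT. WT and C54Y libraries did not overlap for 126 of the genes that rose and 54 of those that fell. Such separation was seen for 18.0% of all genes tested, with C54Y above WT for 9.30% and below for 8.69%. The median log2 fold change of all genes was 0.02 in replicate 1 and -0.01 in replicate 2. When the replicate number was not used as a block, 0 genes passed in limma and 252 had an unadjusted p under 0.05, against 1884 with the block. Calls also moved with single libraries: 69 genes were called without C54Y replicate 2, 543 without WT replicate 1, and 1818 or 1619 without KO replicate 1 or 2, which enter only the estimate of the spread. With each of the 6 libraries left out in turn, 63 of the 208 genes (44 up, 19 down) passed every time. The plot of the replicates shows the spread around these calls.

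**Figure D1:**
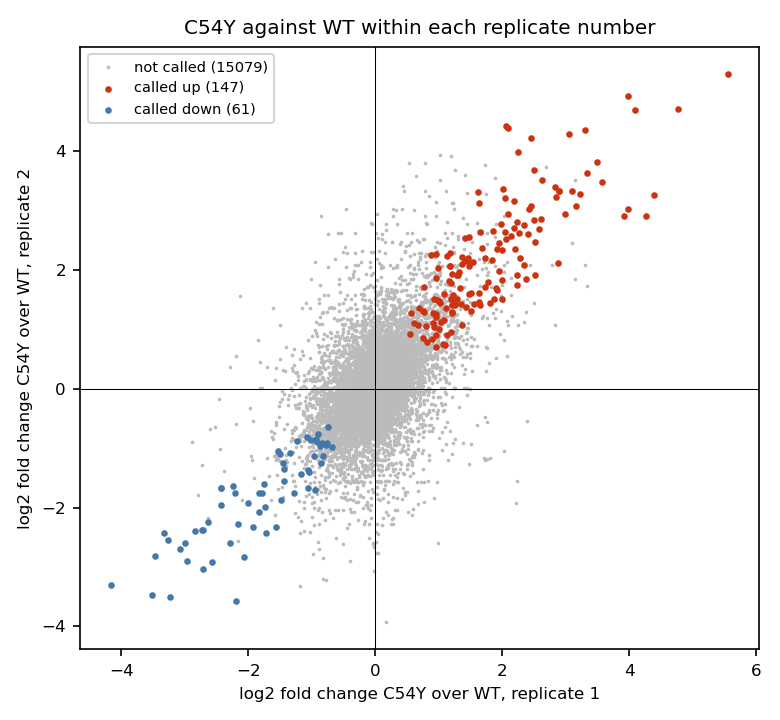
Log2 fold change of C54Y over WT in replicate 1 (x axis) and replicate 2 (y axis), 1 point per tested gene. The 147 genes called up and the 61 called down lie in the upper right and lower left corners, while 15079 genes were not called.

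The genes that fell furthest encode proteins of several compartments. Ehd3, an ATPase of endosomal recycling, had 191 and 259.9 normalized counts in WT and 8.84 and 24.7 in C54Y (log2 fold change -3.73 ± 0.44, adjusted p = 0.00526). Cuedc2, a ubiquitin-binding CUE domain protein, had 3001 and 7098 in WT and 259.7 and 635 in C54Y. Its C54Y level was 11.3 times lower (-3.50 ± 0.17, adjusted p = 0.000106), with the smallest adjusted p of the genes that fell. Shld1, listed as 1110034G24Rik, is a subunit of shieldin, the complex that protects broken DNA ends from resection. Its values were 235 and 494 in WT and 23.1 and 41.6 in C54Y (-3.37 ± 0.30, adjusted p = 0.00176). Of 19 tested genes of shieldin and the choice of double-strand break repair pathway, Shld1 was the 1 that was called.

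Cradd, the adaptor that links the death domain protein PIDD1 to caspase-2, had 299.5 and 623 in WT and 25.2 and 87.0 in C54Y (-3.14 ± 0.28, adjusted p = 0.00176). It was the 1 called gene among 21 apoptosis regulators. Dph6, the last enzyme of diphthamide synthesis on elongation factor 2, had 928 and 456 in WT and 109 and 68.8 in C54Y (-2.88 ± 0.26, adjusted p = 0.00176), and the other 7 tested genes of that pathway were not called. Both replicates placed these genes low in C54Y, with no overlap between groups. Fam73a, a mitochondrial outer membrane protein also named Miga1, had 2676 and 565 in WT and 264 and 104 in C54Y (-2.87 ± 0.26). Ech1, an isomerase of fatty acid oxidation, had 1129 and 2519.5 in WT and 140.1 and 413 in C54Y (-2.80 ± 0.19). Srgn, the core protein of a secretory granule proteoglycan, had 663 and 251 in WT and 67.3 and 41.6 in C54Y (-2.90 ± 0.30). Adjusted p-values of these 3 genes were 0.00176, 0.000588 and 0.00301.

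Of 29 tested lysosomal genes 3 fell: Cln3, Gusb and Ctsl. Cln3, the lysosomal membrane protein mutated in Batten disease, had 1185 and 1279 in WT and 264 and 261 in C54Y (-2.22 ± 0.19, adjusted p = 0.00172). Gusb, the lysosomal beta-glucuronidase, had 1323 and 1835 in WT and 285 and 542 in C54Y (-1.98 ± 0.19, adjusted p = 0.00232). Ctsl, a lysosomal cysteine protease, changed less, from 15102 and 11461 in WT to 8980.2 and 7360.3 in C54Y (-0.69 ± 0.12, adjusted p = 0.0347). Its call was lost without WT replicate 2, C54Y replicate 1 or C54Y replicate 2 (adjusted p = 0.101, 0.268 and 0.481). The median of the 29 genes was -0.16, with 21 below 0. Galc, which breaks down galactosylceramide in lysosomes and was not on that list, had 545 and 264 in WT and 152 and 61.1 in C54Y (-1.95 ± 0.25, adjusted p = 0.00849). Without C54Y replicate 2 its adjusted p was 0.0595. Usp31, a deubiquitinase, had 1915 and 562 in WT and 500.4 and 110.4 in C54Y (-2.13 ± 0.29), and its WT and C54Y libraries parted by a narrow margin between WT replicate 2 and C54Y replicate 1.

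The most abundant genes that fell changed by smaller amounts. Lama1, a laminin chain of basement membranes, had 8863 and 4097 in WT and 3118 and 1915 in C54Y (-1.30 ± 0.15, adjusted p = 0.00492), and passed with any library left out. It was the 1 gene that limma called of 12 basement membrane genes. Of the 12, edgeR called 1 lower and DESeq2 4, and 6 had an unadjusted p under 0.05 in limma. Tmed10, a cargo receptor between endoplasmic reticulum and Golgi, had 4989.9 and 5690.2 in WT and 2113 and 3101 in C54Y (-1.06 ± 0.15). Psmb5, a catalytic subunit of the proteasome, had 3961 and 11337 in WT and 2129.6 and 6709.5 in C54Y (-0.83 ± 0.13, adjusted p = 0.0216). Within each replicate Psmb5 was lower in C54Y, while across replicates the groups overlapped. Gja1, the gap junction protein connexin 43, had 15105 and 6301 in WT and 8908 and 3366 in C54Y (-0.83 ± 0.13). Calls were lost for Tmed10 without C54Y replicate 1 or 2 (adjusted p = 0.0828 and 0.0595). For Psmb5 they were lost without WT replicate 2, C54Y replicate 1 or C54Y replicate 2 (0.0628, 0.162 and 0.326), and for Gja1 without the same 3 (0.109, 0.0953 and 0.543). The remaining 27 tested proteasome subunits were not called. The median of all 28 was -0.13, with -0.01 without WT replicate 2 and -0.24 without WT replicate 1, and 24 lay below 0 in both replicates. The share of all genes on 1 side of 0 in both replicates was not counted. Such counts, here and for the lists below, therefore have no background beside them.

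**Figure D2:**
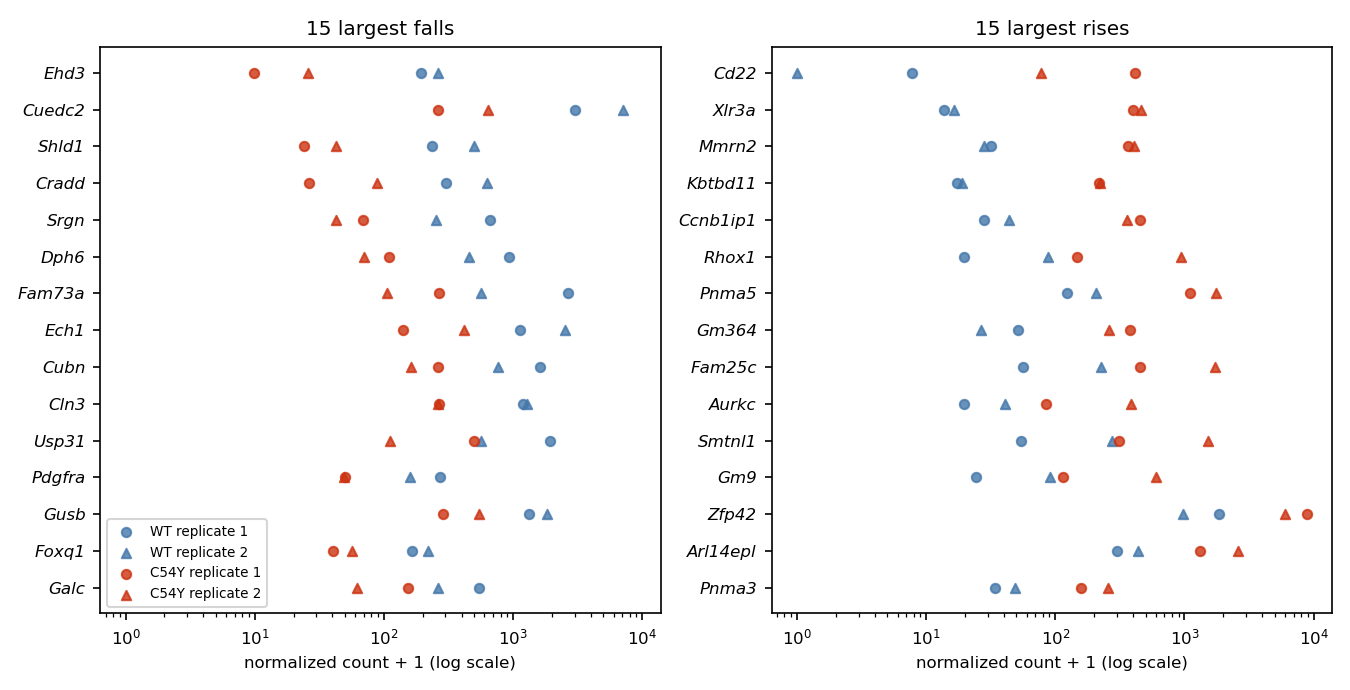
Normalized counts (plus 1, log scale) in the 2 WT and 2 C54Y libraries for the 15 largest falls and the 15 largest rises that were called, averaged 3 CPM (counts scaled to an equal depth) or more and did not overlap between groups. Blue marks are WT and red marks C54Y, with circles for replicate 1 and triangles for replicate 2.

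Some promoters of genes that fell held a paired motif. It was chosen after the sequences had been seen, so its counts are a description with no test. The pair is GCCC followed, after 6 bases, by AANATGG, searched on both strands of RefSeq promoter windows (GRCm38.p6) that run from 250 bases before to 50 bases after a gene's start. AANATGG is the core recognised by the zinc finger factor YY1, and GGGC, the reverse complement of GCCC, is part of sequences bound by the THAP domain of THAP1. The stretches below are pairs of 7 genes that fell and, for comparison, of Rrm1 and Tor1a, which were not called. Pairs that run over the gene's start, 1 each in Psmb5 and Rrm1, are not shown. They are on the gene's strand, with the GCCC and AANATGG of the pair in capitals.
Cuedc2, chr19:46338686-46338718 (- strand): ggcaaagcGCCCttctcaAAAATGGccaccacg
Shld1, chr2:132686827-132686859 (+ strand): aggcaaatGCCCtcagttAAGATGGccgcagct
Cradd, chr10:95324152-95324184 (- strand): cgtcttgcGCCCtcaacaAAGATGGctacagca
Ech1, chr7:28825200-28825232 (+ strand): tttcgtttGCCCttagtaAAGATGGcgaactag
Ech1, chr7:28825269-28825301 (+ strand): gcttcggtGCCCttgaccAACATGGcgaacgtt
Usp31, chr7:121707598-121707630 (- strand): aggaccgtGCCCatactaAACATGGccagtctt
BC052040, chr2:115581594-115581626 (+ strand): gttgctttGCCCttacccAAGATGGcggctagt
Psmb5, chr14:54618072-54618104 (- strand): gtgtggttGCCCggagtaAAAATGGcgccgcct
Rrm1, chr7:102441588-102441620 (+ strand): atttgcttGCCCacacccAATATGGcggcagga
Tor1a, chr2:30967990-30968022 (- strand): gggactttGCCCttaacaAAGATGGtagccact
Of 42 genes that fell and had a window, 14 (33.3%) held the pair. Among 110 genes that rose it was 3 (2.73%), and over all 11950 tested genes with a window it was 101 (0.845%). Counted over all 32851 windows of the table, 0.396% held it. With 0 to 5 or 7 to 12 bases between GCCC and AANATGG, 0 of the 42 genes that fell had a match. At each of those spacings 0.0251% to 0.243% of all tested genes had one, so 0 of 42 says little about spacing. The spacing of 6 bases was part of the pair chosen after the sequences had been seen. Most matches at 6 bases, 91 of 121 in windows of tested genes, ran in the direction of the gene. The plot by spacing shows the shares at every distance. With the 4 WT and C54Y libraries alone in the fit, which called 1743 genes, the share among those that fell was 3.97%.

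**Figure D3:**
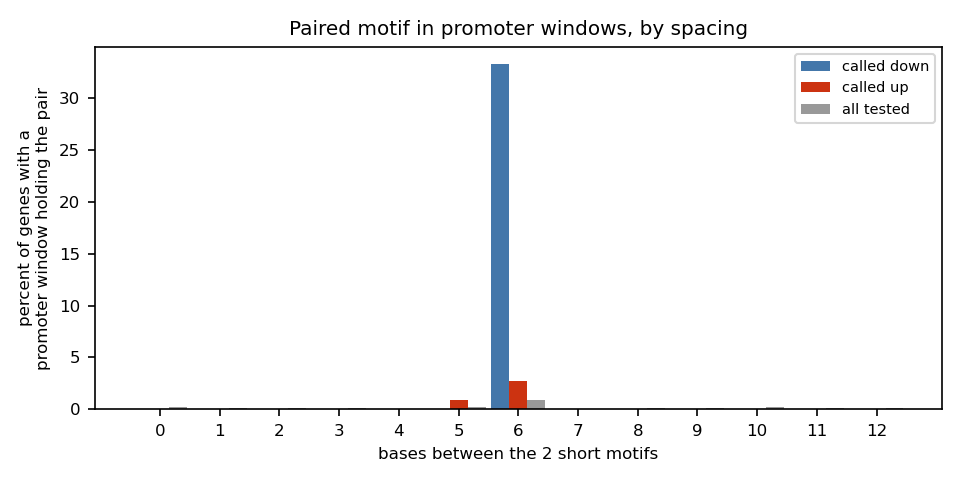
Share of genes with the paired motif in a promoter window (y axis, percent) by the number of bases between its GCCC and AANATGG (x axis), for genes called down, called up and all tested. At 6 bases the bars stand at 33.3%, 2.73% and 0.845%.

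The 14 genes include Cuedc2, Shld1, Cradd, Ech1, Usp31, Galc and Psmb5, described above. Ech1, Psmb5 and A430005L14Rik each held 2 matches in 1 window. So did Rrm1, Ndufb5, Tpgs1, Mrpl47, 2810403A07Rik, Ccdc167, N4bp1 and Slx4ip, which were not called. Prepl, a prolyl endopeptidase-like enzyme, had 1262 and 838 in WT and 424 and 166 in C54Y (-1.94 ± 0.29, adjusted p = 0.0166). BC052040 had 1162 and 1503 in WT and 426 and 513 in C54Y (-1.50 ± 0.18, adjusted p = 0.00641), with an adjusted p of 0.0601 without C54Y replicate 2. The others were 9130019O22Rik (-2.54), Zfp764 (-2.08), AW209491 (-1.30), Mff (-1.05), which recruits the mitochondrial fission machinery, and A430005L14Rik (-0.88), all as log2 fold changes. Except for 9130019O22Rik, these lost their call without C54Y replicate 2 and some other libraries, and the highest adjusted p over the left-out libraries was 0.271 for Zfp764, 0.22 for AW209491, 0.212 for Mff and 0.419 for A430005L14Rik.

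Holding the pair did not go with a fall in most genes. Of the 101 tested genes with it, 84 were not called, and the median log2 fold change of all 101 was 0.02. Values below -0.5 were found for 18 of the 101 (17.8%), against 7.86% of genes without the pair. These 18 include the 14 genes called lower, and the pair was chosen after the sequences had been seen. The shares therefore cannot show an excess of falls among genes with the pair. The others of the 18 were Pex7, Ndufb5, Tpgs1 and Zfp747, which were not called. Rrm1, a subunit of ribonucleotide reductase, had 6491 and 6919 in WT and 7719 and 8057 in C54Y (0.23 ± 0.13, adjusted p = 0.543). Tor1a, which encodes torsinA and is mutated in DYT1 dystonia, had 1002 and 1565 in WT and 866 and 1533 in C54Y (-0.12 ± 0.16, adjusted p = 0.861). The 3 genes with the pair that rose had different roles. Cyb5d2, a heme-binding protein, had 83.7 and 116 in WT and 432 and 500.1 in C54Y (2.22 ± 0.22, adjusted p = 0.00232). Coq9 of coenzyme Q synthesis (0.93 ± 0.14) and Aars2, the mitochondrial alanyl-tRNA synthetase (0.92 ± 0.15), rose less and lost their calls without C54Y replicate 2 (highest adjusted p over the left-out libraries 0.321 and 0.222). Shorter motifs named in the design were more common in all promoter windows than the pair. TNNNGGCA was in 50.9% of windows of genes that fell, 40% of those that rose, 39.3% of windows of tested genes and 42% of all windows. In the same order, GGGCAA was in 28.1%, 18.5%, 14.6% and 14%, and AANATGGCG in 17.5%, 5.38%, 4.29% and 2.38%.

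Most genes of the primitive endoderm that were tested fell in C54Y. Of 14 tested regulators and endocytic receptors, 9 fell, 0 rose, and all 14 lay below 0 in both replicates. Without C54Y replicate 2, 4 fell. Their median log2 fold change was -1.88, beside -0.0021 over all genes, and their summed normalized count was 14570 and 7333 in WT and 8021 and 3196 in C54Y. Among the lineage factors, Gata6 had 154 and 169 in WT and 35.4 and 22.1 in C54Y (-2.44 ± 0.34, adjusted p = 0.0116). Gata4 had 595 and 521 in WT and 218 and 204 in C54Y (-1.39 ± 0.22, adjusted p = 0.02). Sox17 (-2.55 ± 0.49) and Foxa2 (-2.74 ± 0.47) also fell, from levels no higher than 136 in any library. Foxq1, a forkhead factor, had 165 and 217 in WT and 39.4 and 55.9 in C54Y (-1.97 ± 0.30, adjusted p = 0.0166).

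Of the receptors, Pdgfra, the platelet-derived growth factor receptor that marks this lineage, had 272 and 157 in WT and 49.0 and 48.1 in C54Y (-2.05 ± 0.31, adjusted p = 0.0164). Cubn, the cubilin receptor, had 1626 and 760.5 in WT and 260.4 and 159.8 in C54Y (-2.43 ± 0.25, adjusted p = 0.00301). Its partner Amn had 223 and 452 in WT and 64.6 and 148 in C54Y (-1.68 ± 0.26). Dab2, the clathrin adaptor of these receptors, had 1006 and 1053 in WT and 281 and 312 in C54Y (-1.79 ± 0.21, adjusted p = 0.00492). For each of these 4 genes both C54Y libraries were below both WT libraries. Lrp2, the megalin receptor and the most abundant of the list, was not called, with 9841 and 3106 in WT and 6855 and 1824 in C54Y (-0.64 ± 0.25, adjusted p = 0.323). Cubn, Dab2 and Pdgfra passed with any library left out, and the other 6 did not. Without C54Y replicate 2 the adjusted p was 0.0558 for Gata6 and 0.0934 for Foxq1, and the highest over the left-out libraries was 0.172 for Gata4, 0.0916 for Sox17, 0.208 for Foxa2 and 0.148 for Amn.

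Limma called 0 members of the lists for other lineages. Of 12 primitive streak and mesoderm genes (median -0.63) 3 had an unadjusted p under 0.05, and edgeR and DESeq2 called 0. For 11 neural genes (-0.28) it was 5, with 1 called lower by edgeR and 2 by DESeq2. For 14 trophectoderm genes (-0.21) it was 5, and edgeR and DESeq2 called 0. The 17 Wnt antagonists and targets had 0 calls by limma, edgeR and DESeq2 and 6 at an unadjusted p under 0.05 (median -0.54, 13 below 0). Among 28 imprinted genes 3 fell and 0 rose, with a median of -0.39. Those that fell numbered 0 without C54Y replicate 2, 1 without WT replicate 2, 7 without WT replicate 1 and 13 without either KO library. Peg10, a retrotransposon-derived placental gene, had 25083 and 16885 in WT and 15697 and 8524 in C54Y (-0.83 ± 0.13, adjusted p = 0.0216). Mest, a hydrolase expressed from the paternal allele, had 3598 and 1839 in WT and 1713 and 1048 in C54Y (-0.94 ± 0.17). Cdkn1c, the cyclin-dependent kinase inhibitor p57, had 927 and 2073 in WT and 510.0 and 872 in C54Y (-1.05 ± 0.20). None of these 3 calls held without C54Y replicate 2 (adjusted p = 0.354, 0.101 and 0.918) or without WT replicate 2 (0.121, 0.11 and 0.11), and that of Mest was also lost without C54Y replicate 1 (0.322).

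Some genes of naive pluripotency rose in C54Y. Of 19 tested, 4 rose and 0 fell, with a median log2 fold change of 0.67 and 16 above 0 in both replicates. The number that rose was 0 without the replicate block, 2 without C54Y replicate 2, 8 by DESeq2, 9 without WT replicate 1, and 14 with the 4 WT and C54Y libraries alone or without either KO library. Zfp42, also known as Rex1, had 1843 and 974 in WT and 8809 and 5996 in C54Y (2.44 ± 0.18, adjusted p = 0.000877). Tcl1, a coactivator of the kinase AKT, had 796 and 1122 in WT and 1964 and 4237 in C54Y (1.61 ± 0.17, adjusted p = 0.00379). Prdm14, a repressor that sustains the naive state, had 307 and 323 in WT and 689 and 1138 in C54Y (1.49 ± 0.21, adjusted p = 0.0128). For these 3 genes and for Klf2 the groups did not overlap. Klf2, a Krüppel-like factor of the naive network, had 1744 and 2911 in WT and 3391 and 6977 in C54Y (1.11 ± 0.17, adjusted p = 0.02). Zfp42 and Tcl1 passed with any library left out, whereas Prdm14 was lost without C54Y replicate 2 (adjusted p = 0.187) and Klf2 without WT replicate 2 (0.0697) or C54Y replicate 2 (0.101).

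The shared core of pluripotency did not move past the test. Of 15 core factors 0 were called by limma or edgeR and 1 by DESeq2, with 3 at an unadjusted p under 0.05 and a median of 0.15. Pou5f1 had 32384 and 84886 in WT and 36877 and 95864 in C54Y (0.18 ± 0.10, adjusted p = 0.551). Sox2 differed by 0.12 ± 0.14 (adjusted p = 0.834). Nanog had 9895 and 7539 in WT and 12477 and 15219 in C54Y (0.67 ± 0.17, adjusted p = 0.117). Of 17 formative and primed genes, Otx2, a homeobox factor of the exit from naive pluripotency, was the 1 that was called. The list's median was -0.33, with 11 of 17 below 0 and 8 at an unadjusted p under 0.05, and the fit of the 4 WT and C54Y libraries alone called 6 lower and 3 higher. Otx2 had 1170.2 and 1552 in C54Y, 672 and 741 in WT and 585 and 752 in KO (0.93 ± 0.17 for C54Y against WT, adjusted p = 0.0382), so its C54Y libraries were the highest of the 6. That call was lost without WT replicate 2, C54Y replicate 1 or C54Y replicate 2 (adjusted p = 0.297, 0.138 and 0.788), and C54Y against KO gave 1.02 ± 0.17 with an adjusted p of 0.0586. Lefty2, a Nodal antagonist, had 2958 and 3990.3 in WT and 6263 and 8914 in C54Y (1.12 ± 0.15, adjusted p = 0.00876), and was the 1 called gene of 18 in the Nodal and BMP pathways. Without C54Y replicate 2 its adjusted p was 0.136.

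**Figure D4:**
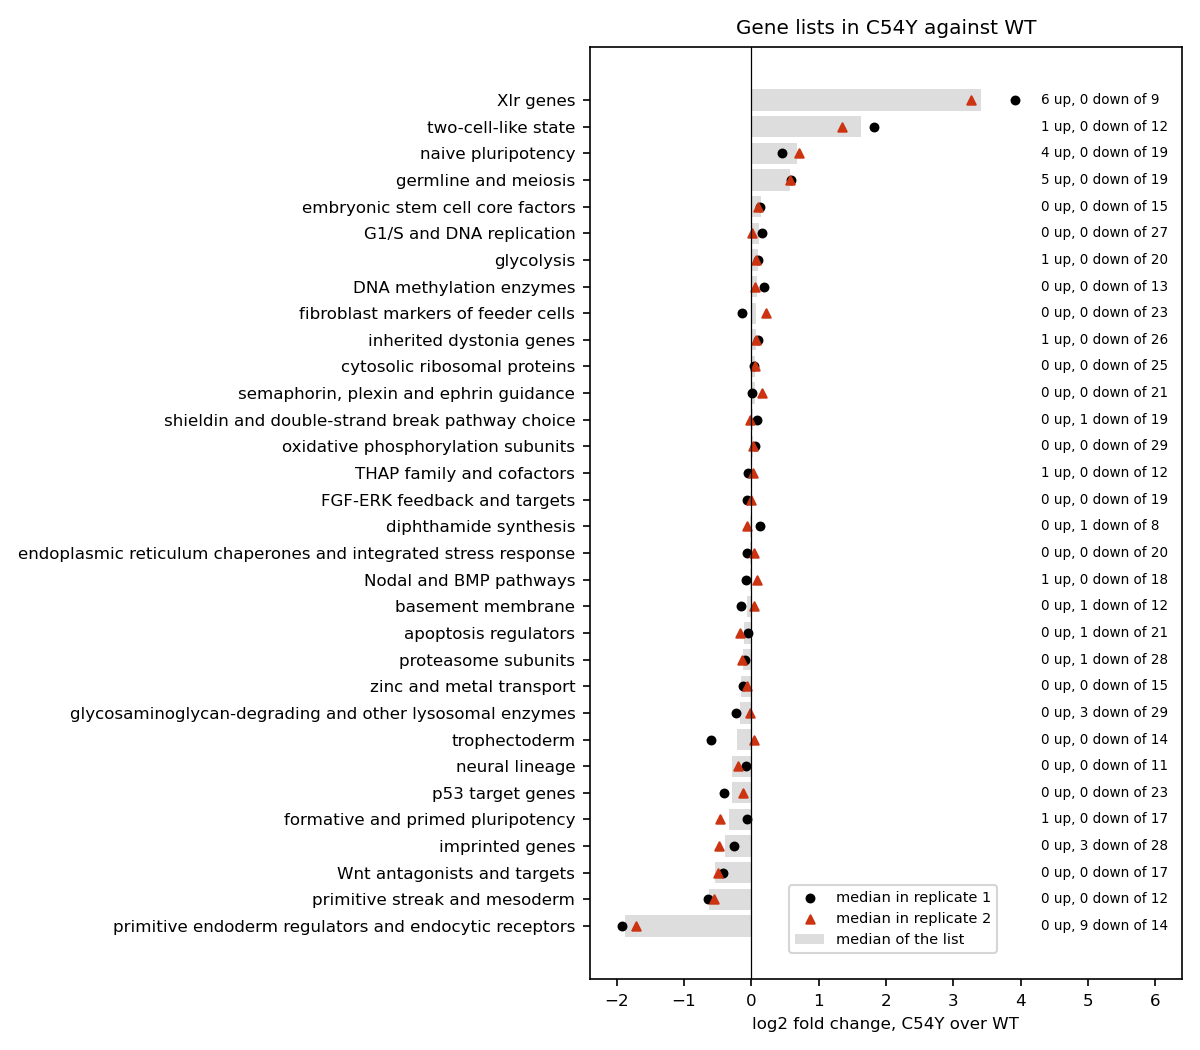
Median log2 fold change of C54Y over WT for each of 32 gene lists (bars), with the median in replicate 1 (circles) and replicate 2 (triangles). The text at the right gives how many of the tested members were called; primitive endoderm genes stand lowest at -1.88 and Xlr genes highest at 3.41.

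The largest rises were in genes that WT cells expressed at low levels. Cd22, an inhibitory receptor of B cells, had 6.72 and 0 in WT and 410.0 and 76.6 in C54Y (5.43 ± 0.32, adjusted p = 0.000317). Mmrn2, an extracellular matrix protein known from endothelium, had 30.6 and 27.0 in WT and 366 and 407 in C54Y (3.66 ± 0.24, adjusted p = 0.000588). Kbtbd11, a Kelch and BTB domain protein, had 16.4 and 18.0 in WT and 218 and 222 in C54Y (3.53 ± 0.30, adjusted p = 0.00145). Every C54Y value of these genes was far above both WT values. Ccnb1ip1, a ubiquitin ligase needed for meiotic crossing over, had 26.9 and 42.5 in WT and 456 and 359.8 in C54Y (3.50 ± 0.34, adjusted p = 0.00232). Aurkc, the aurora kinase of germ cells, had 18.7 and 39.9 in WT and 83.0 and 387 in C54Y (2.63 ± 0.34), with an adjusted p of 0.0504 without C54Y replicate 2. Fam25c (2.97 ± 0.21), Smtnl1 (2.49 ± 0.20) and Arl14epl (2.36 ± 0.20) rose as well, with no overlap between the groups.

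Several X-linked gene families expressed in germ cells were among the rises. Of 9 tested Xlr genes, which encode chromatin-associated proteins related to the meiotic protein SYCP3, 6 rose and all 9 were above 0 in both replicates (median 3.41). The list summed to 40.3 and 38.6 normalized counts in WT and 902 and 976 in C54Y. Its members under 10 in WT were tested only through C54Y or KO libraries, so their shared direction is partly set by that filter. Xlr3a had 12.7 and 15.4 in WT and 398 and 457 in C54Y (4.74 ± 0.37, adjusted p = 0.00125). Xlr5a had 5.23 and 5.15 in WT and 122 and 184 in C54Y (4.40 ± 0.41, adjusted p = 0.00184). Copies in this family are near-identical, so how reads divide among them is uncertain. Among 19 tested genes of the germline and meiosis, 5 rose and 0 fell, with a median of 0.58. The 5 were Rhox1, Rhox6, Rhox9, Tuba3a and Tuba3b, which are homeobox genes of the X-linked Rhox cluster and testis tubulins. The other 14 were not called. Over the whole list 15 lay above 0 and 4 below, the latter being Sycp2 (-0.67), Ddx4 (-0.34), Tdrd1 (-0.27) and Piwil2 (-0.10). Those that rose numbered 3 without C54Y replicate 2 and 9 without either KO library. Rhox1 had 18.7 and 87.5 in WT and 146 and 944 in C54Y (3.12 ± 0.31, adjusted p = 0.00278). Rhox9 had 269 and 724 in WT and 743 and 3337 in C54Y (1.83 ± 0.20, adjusted p = 0.00413). Within each replicate both were higher in C54Y. Rhox6 (1.62 ± 0.22) and Tuba3b (2.52 ± 0.43) were lost without C54Y replicate 2 (adjusted p = 0.0707 and 0.338). Pnma5 of the X-linked paraneoplastic antigen family had 122 and 206 in WT and 1105 and 1749.8 in C54Y (3.12 ± 0.29, adjusted p = 0.00184), and Pnma3 rose by 2.28 ± 0.33, with an adjusted p of 0.0665 without C54Y replicate 2. All 12 genes tested for the two-cell-like state, named for the embryo at that stage, were above 0 in both replicates (median 1.62). Members under 10 in WT were tested only through C54Y or KO libraries, so their shared direction is partly set by the filter. Without the filter the median of 19 genes was 1.02, and a filter of 50 left 2 genes. Tmem92 was the 1 called, with 0.747 and 9.01 in WT and 13.6 and 76.6 in C54Y (2.67, adjusted p = 0.0305, limma). Its call was lost without C54Y replicate 2, where the log2 fold change was 2.20.

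The most abundant genes that rose changed about 2-fold or less. Ucp2, an uncoupling protein of mitochondria, had 2308 and 5739 in WT and 4349.7 and 12430 in C54Y (1.01 ± 0.13, adjusted p = 0.00876). Sae1, a subunit of the SUMO-activating enzyme, had 5973 and 9330.5 in WT and 10473 and 16163 in C54Y (0.80 ± 0.13, adjusted p = 0.02). Pfkp, a phosphofructokinase, was the 1 called gene of 20 in glycolysis (1.08 ± 0.16, adjusted p = 0.0133). Ckb, Tubb2b and Mov10, which encode brain creatine kinase, a beta tubulin and an RNA helicase, rose by 0.92, 0.74 and 0.88. These calls depended on single libraries. Without C54Y replicate 2 the adjusted p was 0.155 for Ucp2, 0.231 for Sae1, 0.329 for Pfkp, 0.597 for Ckb, 1 for Tubb2b and 0.434 for Mov10. Sae1, Ckb, Tubb2b and Mov10 were also lost without WT replicate 2 (0.0612, 0.258, 0.257 and 0.257), where the log2 fold change of Ckb was 0.56, and Sae1, Tubb2b and Mov10 without C54Y replicate 1 (0.138, 0.0587 and 0.0633).

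Among the other pathways examined, 0 of 23 p53 targets were called by limma or edgeR and 3 by DESeq2, with 8 at an unadjusted p under 0.05 and 20 below 0 (median -0.29). Limma called 10 lower with the 4 WT and C54Y libraries alone or without KO replicate 1, and 9 without KO replicate 2. Mdm2, the p53 ubiquitin ligase, had 7382 and 3114 in WT and 4919.5 and 1954 in C54Y (adjusted p = 0.134). Of 27 genes of the G1/S transition and DNA replication 0 were called by limma, edgeR or DESeq2 (2 at an unadjusted p under 0.05, median 0.11). Yy1 had 2992 and 1932 in WT and 2840.2 and 1790.1 in C54Y (-0.09 ± 0.20, adjusted p = 0.923). Thap1 was the 1 called gene both of 12 THAP family members and cofactors and of 26 inherited dystonia genes. In all, 17 of 32 lists held at least 1 call and 15 held none.

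Changes were uneven across chromosomes. The 385 X-linked genes that averaged 3 CPM or more had a median log2 fold change of 0.25, with 0.16 in replicate 1 and 0.36 in replicate 2. Of them 81.8% were above 0, 12 (3.12%) rose and 0 fell. The 620 genes of chromosome 8 had a median of 0.15, with 0.25 and 0.07 in the replicates. Of these, 76.3% were above 0, 13 (2.1%) rose and 2 fell. Over all autosomes the median was -0.01, and 0.757% of genes rose. The X median was 0.42 without C54Y replicate 1 and 0.09 without C54Y replicate 2. Along chromosome 8, 6 consecutive segments had medians of 0.21 to 0.28 in replicate 1 and 0.01 to 0.17 in replicate 2. The share of reads on chromosome 8 was 5.36% and 4.99% for C54Y, against 4.57% and 4.68% for WT and 4.43% and 4.70% for KO. Thap1, Zfp42, Klf2, Kbtbd11 and Coq9 lie on chromosome 8, and the part that this chromosome-wide difference has in their values was not tested. The part that the X-wide difference has in the values of the Xlr, Rhox and Pnma genes was not tested either.

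**Figure D5:**
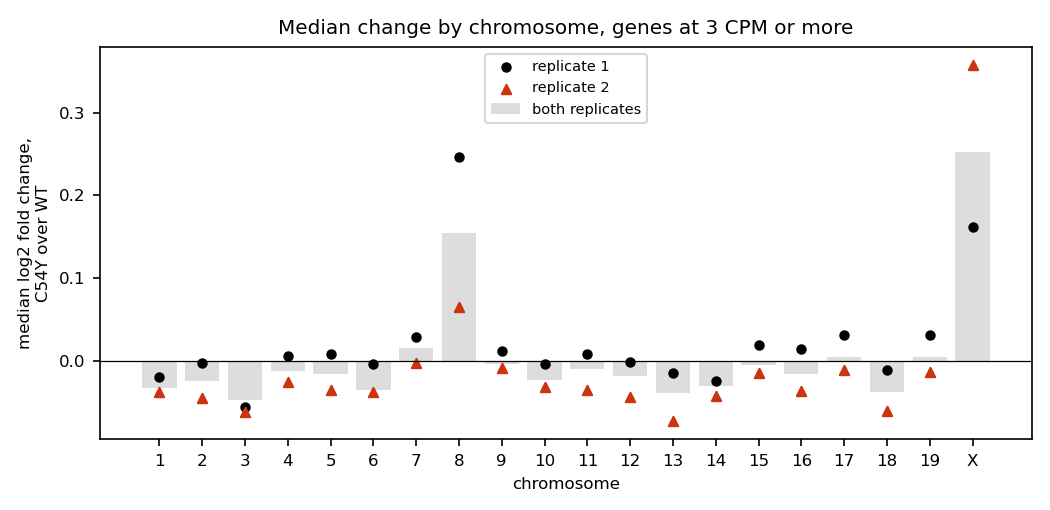
Median log2 fold change of C54Y over WT per chromosome (bars) for genes averaging 3 CPM or more, with replicate 1 (circles) and replicate 2 (triangles). Chromosome 8 (0.15) and X (0.25) lie above the other chromosomes.

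The KO libraries show where the missense cells differ from cells without THAP1. C54Y and KO differed in 29 of 15287 genes (0.190%), with 22 higher in C54Y (0.144%) and 7 lower (0.0458%). In the same fit KO differed from WT in 2494 genes (16.3%) and C54Y from WT in 208 (1.36%). The comparisons of C54Y and of KO with WT use the same WT libraries, so their values are given side by side only. Against WT, Cuedc2 stood at -3.50 in C54Y and -3.57 in KO, Cln3 at -2.22 and -2.16, and Gusb at -1.98 and -2.11. C54Y minus KO was 0.07 ± 0.17, -0.06 ± 0.19 and 0.13 ± 0.19 for these genes, with adjusted p of 0.886, 0.91 and 0.795. Cd22 stood at 5.43 and 5.72, with a difference of -0.29 ± 0.32. A p above the threshold does not show that the genotypes were alike.

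Lrp2 had 911 and 541 in KO, 6855 and 1824 in C54Y and 9841 and 3106 in WT, so C54Y was 2.33 ± 0.25 (log2) above KO (adjusted p = 0.0161). Sema6a, a transmembrane semaphorin of axon guidance, had 130.3 and 115 in KO, 1847 and 613 in C54Y and 1947 and 1017 in WT (3.10 ± 0.30 above KO, adjusted p = 0.0161). Stmn4, a neuronal microtubule-destabilising stathmin, had 11.3 and 5.09, 90.4 and 77.9 and 197 and 190.4 in the same order (3.15 ± 0.34). For these 3 genes KO lay far below C54Y in both replicates, and none was called between C54Y and WT. Spon1, Fndc3c1 and Enpp2 were also higher in C54Y than in KO (2.95, 2.75 and 2.58), as were Mcoln3 (2.98) and Wnt3 (2.48). The 7 genes lower in C54Y than in KO were Mras (-1.80), Myo1f (-1.80), Inhbb (-1.45), Krt17 (-1.31), Laptm5 (-1.29), Mid1 (-1.06) and E130012A19Rik (-0.94). Myo1f, Inhbb and Krt17 were at the same time above WT in C54Y (log2 fold changes 1.25, 0.98 and 1.34), each with a call lost without C54Y replicate 2 (adjusted p = 0.395, 0.71 and 0.252). Without C54Y replicate 1, 7 genes remained called between C54Y and KO, all of them higher in C54Y. All 7 of the lower genes, Mcoln3 and Wnt3 lost their calls there. The highest adjusted p over the left-out libraries was 0.0515 for Mcoln3 and 0.126 for Wnt3, and 0.0515 to 0.38 for the 7 lower genes.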

How the data were processed

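RNA sequencing of mouse embryonic stem cells gave 6 libraries, 2 each of WT, C54Y and KO. Tools in the submitters' processing notes are DESeq2, HTSeq, TopHat2 2.1.0, Trimmomatic and CASAVA, with the build mm9. Strand setting, annotation and filters are not given in the sources used here, so overlapping and antisense genes cannot be told apart. The deposited table holds a normalized count signal, reads divided by 1 size factor per library. All values were whole multiples of the column's step (tolerance 1e-06), so 100% of reads were recovered as whole numbers, for edgeR and DESeq2 as alternatives and for CPM (counts scaled to an equal depth).

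Genes that reached 10 in 2 or more libraries entered limma 3.58.1 (trend, robust) in R 4.3.3 on log2(value + 2), with replicate number as a block and all 6 libraries sharing 1 estimate of the spread (2 residual degrees of freedom). Benjamini-Hochberg adjustment ran over all 15287 genes, at a threshold of 0.05. Same-numbered libraries deviated together from their group means (correlations 0.907, 0.895 and 0.869 for C54Y with WT, C54Y with KO and KO with WT), so the numbers pair the samples. The alternatives were edgeR 4.0.16, DESeq2 1.42.0, TMM factors, pseudocounts of 0.5 and 8, other filters, other sets of libraries and each library left out.

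The comparison and the 32 gene lists were chosen with earlier results of these data known. Named genes are a fixed set (Thap1, Shld1, Psmb5, Rrm1, Tor1a, Yy1, Pou5f1, Sox2, Nanog), the 15 largest called changes per direction with a mean of at least 3 CPM and no overlap, the 6 most abundant called genes per direction, up to 5 members per list by smallest p, 8 genes per direction between C54Y and KO, and head-to-head neighbours of fallen genes. Other genes that are named, such as those with the paired motif, were chosen after their values were seen. Symbols were matched to RefSeq (GRCm38.p6) for chromosomes (15217 genes, 99.54%) and promoter sequences, and to GENCODE for neighbouring starts.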

Additional observations from a re-analysis of the deposited data

How the results depend on the processing

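The count of genes called between C54Y and WT depended on the estimate of the spread. Against 208 as reported (147 up, 61 down), it was 0 without the replicate block (0 and 0), 1743 with the block and the 4 WT and C54Y libraries alone (1057 and 686) and 479 with DESeq2 (343 and 136). Leaving out 1 library gave 69 to 1818 genes (47 to 1134 up, 22 to 684 down). EdgeR called 198 genes, of which 188 were among the 208, TMM factors gave 196, pseudocounts of 0.5 and 8 gave 193 and 186, and other filters 210 and 175. For C54Y against KO, 29 genes as reported (22 and 7) became 0 without the block (0 and 0, with 207 at an unadjusted p under 0.05), 452 with DESeq2 (264 and 188) and 7 to 2831 with 1 library left out (7 to 1384 higher, 0 to 1447 lower); edgeR called 29. The block thus decided every call by limma, and the cause was not tested. Of 65 named genes that were called, 29 lost the call without C54Y replicate 2, 13 without WT replicate 2, 10 without C54Y replicate 1, 1 without WT replicate 1 and 0 without either KO library; 0 changed direction under any setting. The X median ranged from 0.0851 to 0.42 with 1 library left out. The share of fallen genes with the paired motif, 33.3% as reported, was 16.7% under DESeq2, 3.97% with 4 libraries and 3.98% to 41.2% with 1 library left out, as the number of fallen genes with a window went from 17 to 529; the pair was chosen after seeing the data. With 2 libraries per group, changes under 2-fold are poorly resolved: 13 of the 147 genes that rose and 12 of the 61 that fell changed by less than that.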

Other observations

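Called genes were sometimes neighbours. Among tested genes in chromosome order, 14 runs of 2 or more adjacent called genes were found, and the members of each run moved in 1 direction. How often adjacent tested genes moved together over all genes was not counted, so these runs have no background beside them. Many runs held related genes, such as Xlr, Rhox, Pramel, Gjb, Krt, Oas1 and Pnma genes. Others lay on chromosome 8, whose median was raised in C54Y. The longest held 5 Xlr genes on the X chromosome. On chromosome 2, Dph6 (log2 fold change -2.88) lay next to BC052040 (-1.50). On chromosome 7, Cln3 (-2.22) lay next to Apobr (-1.94), and Zfp764 (-2.08) next to 9130019O22Rik (-2.54). Cln3 and Apobr start within 1000 bases on opposite strands, each start downstream of the other. With the strand setting not given, reads of Cln3 and Apobr may not be told apart there. On chromosome 8, Triml2 (1.40) lay next to Zfp42 (2.44). The keratin genes Krt17 (1.34) and Krt42 (1.60) and the interferon-induced genes Oas1g (1.80) and Oas1a (2.73) rose as neighbours. Related copies such as the Xlr, Oas1 and Pramel genes can share reads. Calls of Apobr (highest adjusted p over the left-out libraries 0.0845), Zfp764 (0.271), BC052040 (0.0601), Triml2 (0.0558), Krt17 (0.252) and Oas1g (0.409) were lost with at least 1 library left out, in each case including C54Y replicate 2.

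Some called genes start head to head, within 1000 bases on opposite strands, with a gene that was not called. Ccnb1ip1 rose by 3.50 while Parp2, a DNA repair polymerase, stood at -0.00 (adjusted p = 0.997). Cyb5d2 rose by 2.22 and Zzef1 stood at 0.13 (adjusted p = 0.886). Prepl fell by 1.94 and Camkmt, a calmodulin methyltransferase, stood at -0.04 (adjusted p = 0.975). Dram1, a lysosomal membrane protein, fell by 2.19, with its call lost without C54Y replicate 1 or 2 (highest adjusted p 0.0595), and Gnptab stood at 0.08 (adjusted p = 0.923). Peg10 fell by 0.83 and its imprinted neighbour Sgce stood at -0.76 (adjusted p = 0.184), with the call of Peg10 lost without C54Y replicate 2 (0.354). These values compare each gene with WT, and the difference between neighbours was not tested.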
